A study of Mus musculus with 16 samples.

Results

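The circadian clock genes described here are the 10 rows of the thyroid gene count table named *Arntl*, *Clock*, *Npas2*, *Per1*, *Per2*, *Per3*, *Cry1*, *Cry2*, *Nr1d1* and *Dbp*, out of 25611 rows. They were chosen by symbol, and all 10 were among the 16630 genes with enough counts to be tested. RNA-Seq was carried out on thyroid glands from 16 female C57BL/6 mice, 4 in each of 4 groups, and the question put to the clock genes was whether the mice of the groups stood at different points of the daily cycle. WT(ND) mice were wild type and received the NIH-31 normal diet (ND), and WT(LID) mice were wild type and received the low-iodine diet TD.95125 (LID). The *Glis3*-Pax8Cre mice were fed in the same 2 ways, giving the (ND) and (LID) knockout groups, and carried the *Glis3* tm2Amj allele with a Cre knocked into *Pax8*, which removes exon 5 of *Glis3*, coding for part of the zinc finger domain, from cells that express *Pax8*. The age was 1 month by the labels and 4 weeks by the methods of the study, with 6 days on the diet. Other cells of the gland keep *Glis3*, and whether the WT mice carried a floxed allele or Cre is not given in the sources used here. The hour at which the glands were taken is not given in the sources used here either, so levels can be compared between mice but not placed on a clock time.

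The mammalian clock is a feedback loop of transcription that runs in nearly every tissue. ARNTL, paired with CLOCK or with its relative NPAS2, binds E-box motifs and activates the *Per* and *Cry* genes, whose proteins enter the nucleus and repress their own activators. In a second loop the E-box target NR1D1 (REV-ERB alpha) represses *Arntl* and *Npas2* through ROR response elements, and output factors such as DBP pass the rhythm on through D-box motifs. *Arntl* and *Npas2* therefore reach their daily peak when *Nr1d1*, *Dbp* and the *Per* genes are low, and thyroid-stimulating hormone secretion itself follows a daily rhythm.

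Read pairs counted on genes ranged from 13892352 to 461077969 per mouse with a median of 69163433, and the deepest library was that of WT(ND) replicate 4. The lowest count of any clock gene in any mouse was 222, so counting error was small beside the differences between mice. The 6 follicular markers, led by *Tg* (thyroglobulin), summed to between 97472 and 329098 CPM (counts per 1000000 counts of the TMM-scaled library) in every mouse. On LID the sum was 97472 to 164426 CPM in *Glis3*-Pax8Cre and 218017 to 329098 CPM in WT. The 5 endothelial markers also separated these groups (591 to 754 against 1316 to 1488 CPM). The 6 skeletal muscle markers ranged from 1.64 to 1246 CPM over the mice. The part of tissue make-up in the clock gene levels was not tested. The whole-gene count of *Glis3* ranged from 45.2 to 104.8 CPM on ND and from 119.5 to 204.0 CPM on LID. It did not pass between genotypes (log2 fold change 0.40, edgeR adjusted p = 0.157 on ND, and 0.08, adjusted p = 0.81 on LID), and since only exon 5 is removed it does not test the genotype labels. The 7 thymocyte markers summed to 2444 CPM in *Glis3*-Pax8Cre(ND) replicate 4 and to at most 286.8 CPM in any other mouse. That library and WT(ND) replicate 4, whose clock gene levels stood apart from the other 3 mice of its group, were left out in turn. In these whole glands a smaller number of cells of a type and less RNA per cell cannot be told apart.

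*Arntl*, the shared partner of both activator complexes (mm10, chromosome 7, 113207465 to 113314126, plus strand), varied inside every group. The WT(ND) mice had 20.6, 18.9, 27.6 and 2.14 CPM, and the *Glis3*-Pax8Cre(ND) mice 13.9, 12.2, 20.8 and 23.7 CPM. The WT(LID) mice had 5.08, 18.5, 21.5 and 4.56 CPM, and the *Glis3*-Pax8Cre(LID) mice 9.84, 19.9, 28.02 and 9.46 CPM. All 4 groups overlapped, and both LID groups held 2 mice with high and 2 mice with low values. The highest level, in *Glis3*-Pax8Cre(LID) replicate 3, was 13.1 times the lowest, in WT(ND) replicate 4. A ROR response element core, TAGGTCA, lies just after the start site of *Arntl* in 1 of its 2 promoter windows. It is shown in capitals because *Arntl* was the only clock gene with this match among the 9 that had a promoter window. *Npas2* held none, and the part of the element in the levels of *Arntl* was not tested. The 30 bases around the *Arntl* match (RefSeq, GRCm38.p6, chr7:113207530-113207559, plus strand) are given here.
Arntl: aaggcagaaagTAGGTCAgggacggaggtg

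*Npas2* (chromosome 1, 39194272 to 39363240, plus strand), which replaces *Clock* in some tissues, divided the mice of WT(ND) and of both LID groups as *Arntl* did, but not those of *Glis3*-Pax8Cre(ND). On ND the values were 21.8, 19.5, 36.6 and 6.29 CPM for WT and 21.6, 22.8, 34.6 and 7.60 CPM for *Glis3*-Pax8Cre. On LID they were 6.53, 18.7, 16.2 and 4.84 CPM for WT and 12.3, 33.4, 41.8 and 11.9 CPM for *Glis3*-Pax8Cre. The 4 mice numbered 4 were the lowest of their groups. *Clock* (chromosome 5, 76209868 to 76304792, minus strand) varied less, from 65.2 CPM in *Glis3*-Pax8Cre(ND) replicate 4 to 145.1 CPM in WT(ND) replicate 1, and was 69.5 to 113.2 CPM in *Glis3*-Pax8Cre(LID) against 88.3 to 133.3 CPM in WT(LID).

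Among the repressors, *Per3* (chromosome 4, 151003655 to 151044665, minus strand) fell into high and low mice. WT replicates 1 to 4 had 25.9, 22.8, 17.3 and 95.5 CPM on ND and 43.8, 14.9, 10.9 and 35.8 CPM on LID. *Glis3*-Pax8Cre replicates 1 to 4 had 47.6, 28.00, 17.4 and 51.4 CPM on ND and 45.03, 10.8, 10.3 and 34.9 CPM on LID. On LID, replicates 1 and 4 of either genotype stood at 34.9 CPM or more and replicates 2 and 3 at 14.9 CPM or less. *Per2* (chromosome 1, 91415982 to 91459328, minus strand) varied in all 4 groups. The WT(ND) mice had 34.9, 24.5, 19.3 and 82.5 CPM, and the *Glis3*-Pax8Cre(ND) mice 85.4, 38.95, 36.8 and 80.9 CPM. The WT(LID) mice had 102.8, 71.6, 50.03 and 113.8 CPM, and the *Glis3*-Pax8Cre(LID) mice 126.2, 52.6, 53.7 and 124.9 CPM. Replicate 4 was among the 2 highest mice of every group, and 3 of the 4 WT(ND) mice lay below all other mice. *Per1* (chromosome 11, 69098949 to 69109957, plus strand) stayed between 70.6 and 161.3 CPM, the highest value again in WT(ND) replicate 4.

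*Cry2* (chromosome 2, 92403647 to 92434069, minus strand) ranged from 26.9 to 58.8 CPM, with WT(ND) replicate 4 highest, and *Cry1* (chromosome 10, 85131700 to 85185054, minus strand) from 6.40 to 29.3 CPM. On ND the values were 7.54, 7.19, 7.80 and 8.81 CPM for WT and 19.3, 6.40, 6.92 and 29.3 CPM for *Glis3*-Pax8Cre. On LID they were 12.2, 7.98, 8.99 and 11.4 CPM for WT and 16.4, 11.8, 10.1 and 15.03 CPM for *Glis3*-Pax8Cre. On ND, 2 of the 4 knockout mice lay above every WT(ND) mouse and 2 did not. The highest of them is the library with thymocyte markers, whose part in this value was not tested.

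Exact matches to the motifs of the loop were searched on both strands of the RefSeq promoter windows (GRCm38.p6, 250 bases before to 50 after a start site), which covered 9 of the 10 genes in 13 windows. The E-box CACGTG, held by 7.15% of all 32851 windows, was present in *Per1* at position -166 from its start, and in *Cry1* at -60. The D-box TTATGTAA, held by 0.938% of all windows, occurred 2 times in *Per3* and in no other of the 9 genes, and TTACGTAA (0.119%) and the cAMP response element TGACGTCA (1.79%) in none of them. TAGGTCA was held by 2.61% of all windows. The 250 bases before the start sites of these 3 genes are shown with the matches in capitals, since they are the repressor genes with a match (*Per1*, chr11:69098699-69098948, plus strand; *Cry1*, chr10:85185055-85185304, minus strand; *Per3*, chr4:151044666-151044915, minus strand).
Per1: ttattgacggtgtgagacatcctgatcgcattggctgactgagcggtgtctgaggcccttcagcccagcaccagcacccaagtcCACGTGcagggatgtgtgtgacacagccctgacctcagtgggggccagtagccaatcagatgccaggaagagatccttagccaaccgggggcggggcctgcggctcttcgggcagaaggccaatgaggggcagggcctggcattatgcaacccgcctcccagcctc
Cry1: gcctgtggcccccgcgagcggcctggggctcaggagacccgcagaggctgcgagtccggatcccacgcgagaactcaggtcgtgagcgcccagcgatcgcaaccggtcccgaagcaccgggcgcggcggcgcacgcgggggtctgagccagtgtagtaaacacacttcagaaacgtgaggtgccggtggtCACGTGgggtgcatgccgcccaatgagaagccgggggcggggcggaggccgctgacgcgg
Per3: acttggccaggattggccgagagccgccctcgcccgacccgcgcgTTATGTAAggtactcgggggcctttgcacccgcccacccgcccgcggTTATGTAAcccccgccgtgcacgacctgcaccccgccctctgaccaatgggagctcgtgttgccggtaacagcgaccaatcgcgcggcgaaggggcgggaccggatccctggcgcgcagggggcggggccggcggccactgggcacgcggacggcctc

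*Nr1d1* (chromosome 11, 98767932 to 98775377, minus strand), the repressor of the second loop, varied little apart from single mice. WT replicates 1 to 4 had 134.1, 136.9, 119.4 and 216.0 CPM on ND and 142.9, 127.1, 93.1 and 128.0 CPM on LID. *Glis3*-Pax8Cre replicates 1 to 4 had 101.0, 171.9, 101.5 and 98.9 CPM on ND and 125.1, 94.5, 124.8 and 122.1 CPM on LID. It overlaps *Thra* on the opposite strand, which counts made without regard to strand cannot separate. *Dbp* (chromosome 7, 45705247 to 45710203, plus strand), the output factor, overlaps *Sphk2* and *Cry2* overlaps *D930015M05Rik*, with the same limit. *Dbp* had the widest range of the 10 genes, 25.5 times between *Glis3*-Pax8Cre(LID) replicate 3 at 8.96 CPM and WT(ND) replicate 4 at 228.5 CPM. The WT(ND) mice had 52.4, 49.5, 34.5 and 228.5 CPM, and the *Glis3*-Pax8Cre(ND) mice 96.2, 74.5, 28.5 and 93.04 CPM. The WT(LID) mice had 79.6, 14.95, 14.04 and 84.3 CPM, and the *Glis3*-Pax8Cre(LID) mice 64.7, 13.3, 8.96 and 61.6 CPM. On LID no mouse stood between 15.0 and 61.6 CPM.

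**Figure D1:**
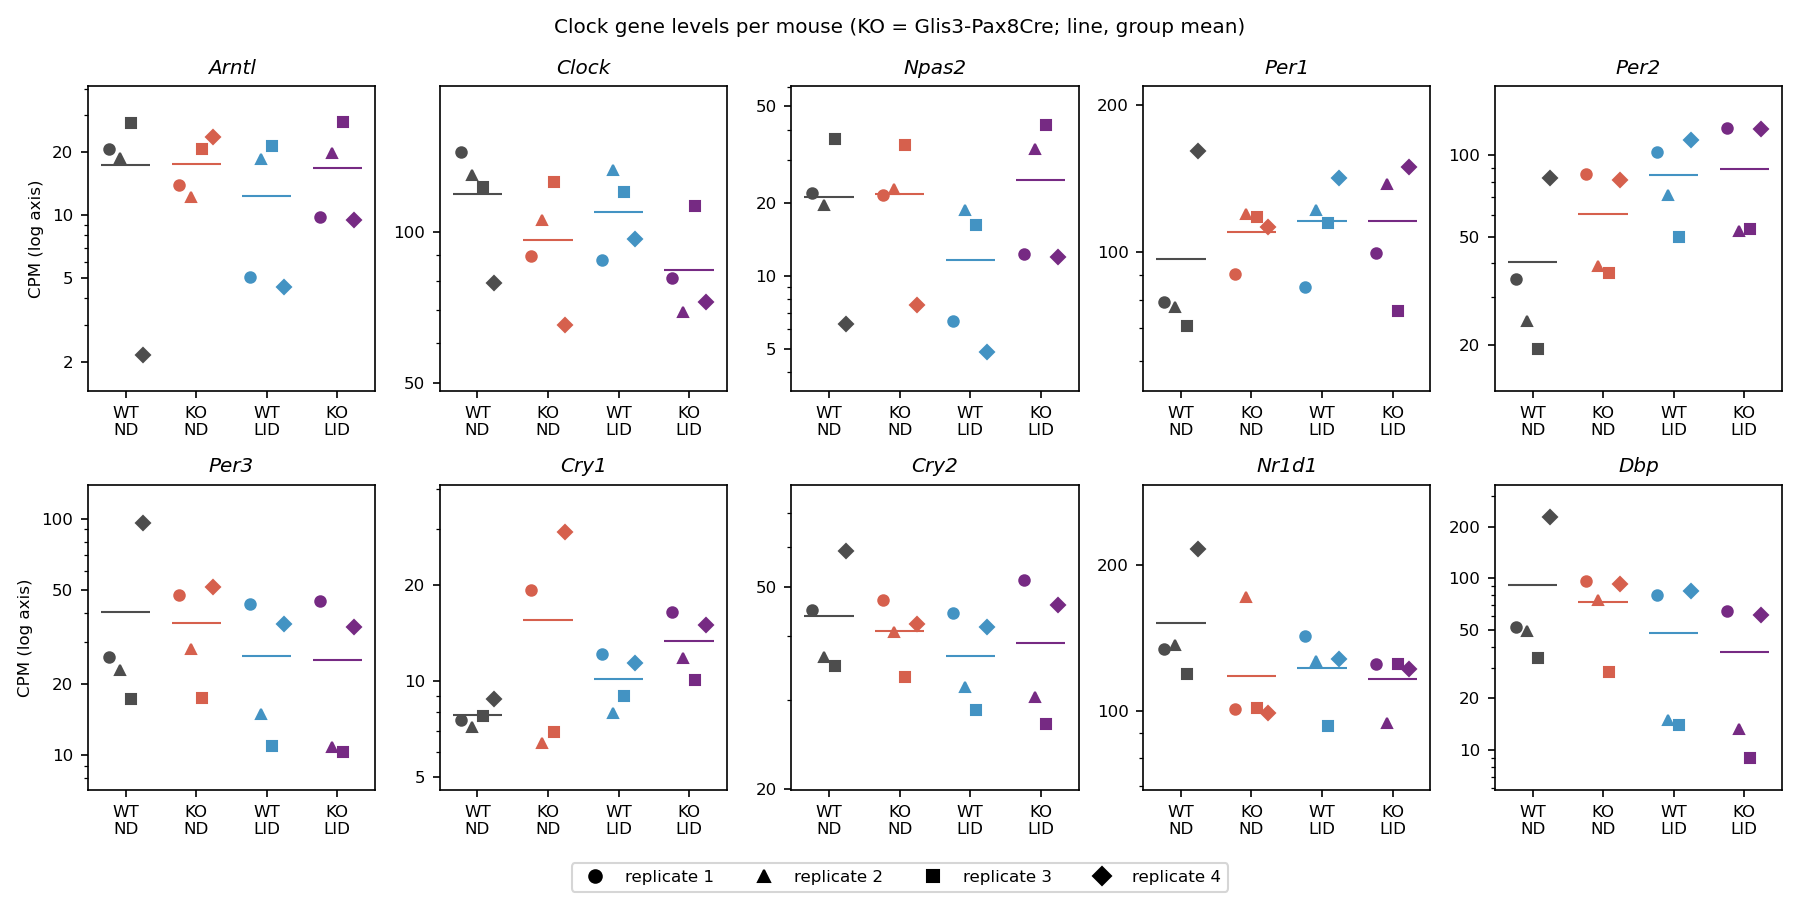
Level of each clock gene in CPM (log axis) in the 16 mice by group, where KO is *Glis3*-Pax8Cre, symbols give the replicate number and lines the group means of 4 mice. In both LID groups replicates 1 and 4 have *Dbp* at 61.6 CPM or more and replicates 2 and 3 at 15.0 CPM or less, while *Arntl* runs the other way.

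Per kilobase of exon (GENCODE vM21, all exons of a gene joined), *Nr1d1* was the most abundant clock transcript with a median over the 16 mice of 45.9 CPM per kb, then *Dbp* with 31.0 and *Per1* with 20.2. *Per2* (10.7), *Clock* (10.2) and *Cry2* (9.51) followed, and *Arntl* (6.04), *Npas2* (4.51), *Per3* (4.49) and *Cry1* (3.15) were lowest. The ranges over the mice of neighbours in this order overlapped, and that of *Dbp*, from 4.88 to 124.4 CPM per kb, crossed those of all the others.

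The clock genes varied between mice of the same group far more than most genes did. The median within-group SD of log2 CPM was 0.65 for the 10 genes and 0.17 for the 11675 genes with a mean of at least 5 CPM. *Dbp* (SD 1.27), *Arntl* (1.13), *Per3* (0.99), *Npas2* (0.98), *Per2* (0.72), *Cry1* (0.59) and *Per1* (0.40) lay above the 90th percentile of those genes, which was 0.36, and *Clock* (0.35), *Cry2* (0.34) and *Nr1d1* (0.32) just below it. For all 10 genes the SD within groups was larger than the SD of the 4 group means. Means of 4 mice vary less than single mice do, so this order does not show that the groups were alike. The share of all genes with the same order was not counted.

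**Figure D2:**
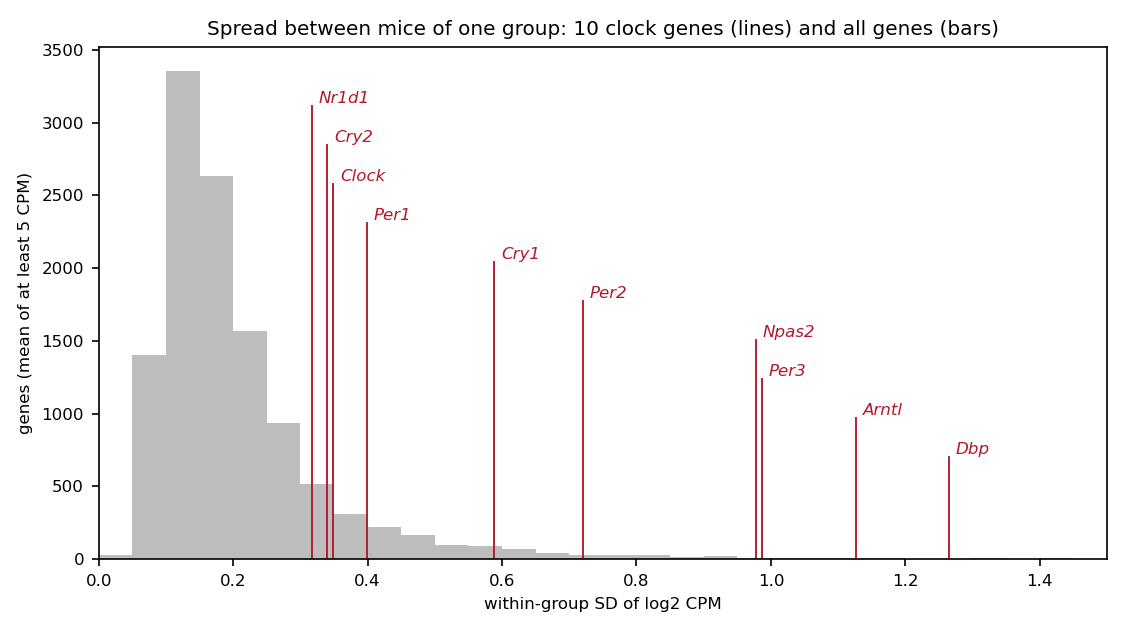
Within-group SD of log2 CPM for the 11675 genes with a mean of at least 5 CPM (grey bars, number of genes) and for the 10 clock genes (red lines, whose heights carry no meaning). The bulk of genes lies near 0.17, and *Dbp* at 1.27 and *Arntl* at 1.13 lie far to the right.

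The clock genes of a mouse deviated together or in opposite directions. Deviations from the group mean of log2 CPM were compared between *Arntl* and each of the other 9 genes over the 16 mice, by a permutation test within groups (two-sided, 100000 resamples, Benjamini-Hochberg adjusted over the 9 pairs). *Dbp* ran opposite to *Arntl* with Pearson's r = -0.88 (p = 0.00176, adjusted p = 0.00722) and Spearman's rho = -0.83 (p = 0.00141, adjusted p = 0.00687). *Per3* (r = -0.85, adjusted p = 0.00722), *Cry2* (r = -0.82, adjusted p = 0.00722), *Per2* (r = -0.79, adjusted p = 0.00722) and *Nr1d1* (r = -0.73, adjusted p = 0.00906) also ran opposite, by the same permutation test. *Npas2* (r = 0.77, adjusted p = 0.0077) and *Clock* (r = 0.63, adjusted p = 0.0266) ran with it. *Per1* (r = -0.58, adjusted p = 0.103) and *Cry1* (r = -0.20, adjusted p = 0.186) did not pass by permutation, which leaves 7 of 9 that did. Spearman's rho had the same sign as r in all 9 pairs.

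The mice farthest from the median of *Arntl* were WT(ND) replicate 4 and WT(LID) replicate 4. Over the 14 other mice r was -0.86 for *Dbp*, -0.82 for *Cry2*, -0.80 for *Per3*, -0.65 for *Per2*, -0.61 for *Nr1d1*, 0.65 for *Npas2*, 0.45 for *Clock* and -0.16 for *Per1* as for *Cry1*. Without WT(ND) replicate 4 alone, the r of *Clock* was 0.41 and did not pass (adjusted p = 0.204 by permutation), nor did it without *Glis3*-Pax8Cre(LID) replicate 3 (r = 0.59, adjusted p = 0.0685 by permutation). With both ND mice numbered 4 left out, a choice made after seeing the data, 5 of the 9 relations passed and those of *Clock* (r = 0.69, adjusted p = 0.0641 by permutation) and *Nr1d1* (r = -0.51, adjusted p = 0.0971 by permutation) did not. Within the 8 ND mice r was -0.89 for *Per1*, -0.84 for *Dbp*, -0.80 for each of *Nr1d1*, *Cry2* and *Per3*, -0.72 for *Per2*, 0.63 for *Npas2*, 0.55 for *Clock* and 0.014 for *Cry1*. These 8 include WT(ND) replicate 4, whose *Arntl* deviation of -2.52 was the farthest of all. On ND alone r was not computed without that mouse, so these values may rest on it. The 8 LID mice fell into 4 with low and 4 with high *Dbp*, and no correlation was tested among them.

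**Figure D3:**
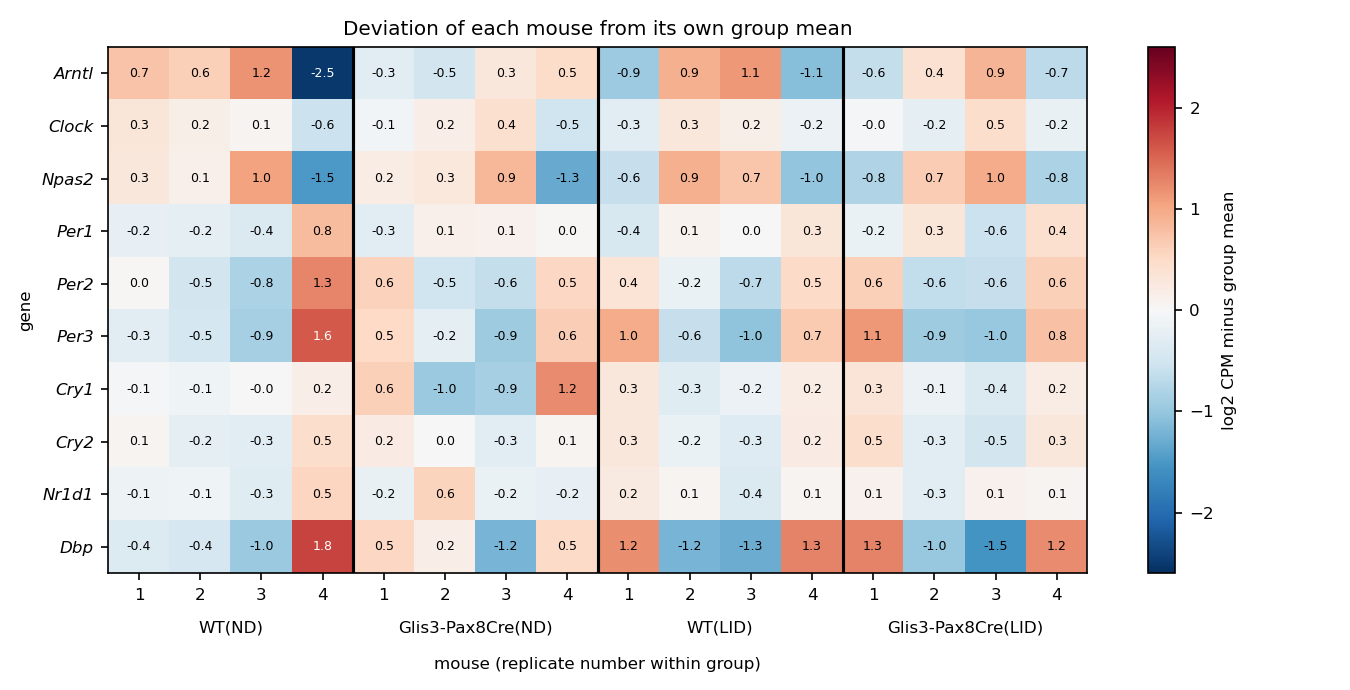
Difference in log2 CPM between each mouse and the mean of its own group of 4, for the 10 clock genes (rows) and 16 mice (columns). The red and blue rows of *Arntl* and *Npas2* are the reverse of those of *Per2*, *Per3* and *Dbp* in both LID groups and in WT(ND) replicate 4.

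The log2 ratio of *Arntl* to *Dbp* gives each mouse 1 value for this relation. The WT(ND) mice had -1.35, -1.39, -0.32 and -6.73, and the *Glis3*-Pax8Cre(ND) mice -2.79, -2.61, -0.45 and -1.97. The WT(LID) mice had -3.96, 0.31, 0.61 and -4.20, and the *Glis3*-Pax8Cre(LID) mice -2.71, 0.58, 1.64 and -2.70. WT(ND) replicate 4 had the lowest value of all 16 mice, and the 4 positive values were those of replicates 2 and 3 on LID. The group means were -2.45 ± 2.90, -1.96 ± 1.06, -1.81 ± 2.63 and -0.80 ± 2.25 (SD, n = 4 each), which differed from each other by less than the SD of the wider group, and no test was made on this ratio. *Glis3*-Pax8Cre(ND) replicate 4 had the highest *Arntl* of its group, 23.7 CPM, beside the second highest *Dbp*, 93.04 CPM. This is the library with thymocyte markers, among them *Rag1* at 1120 CPM, and their part in it was not tested.

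**Figure D4:**
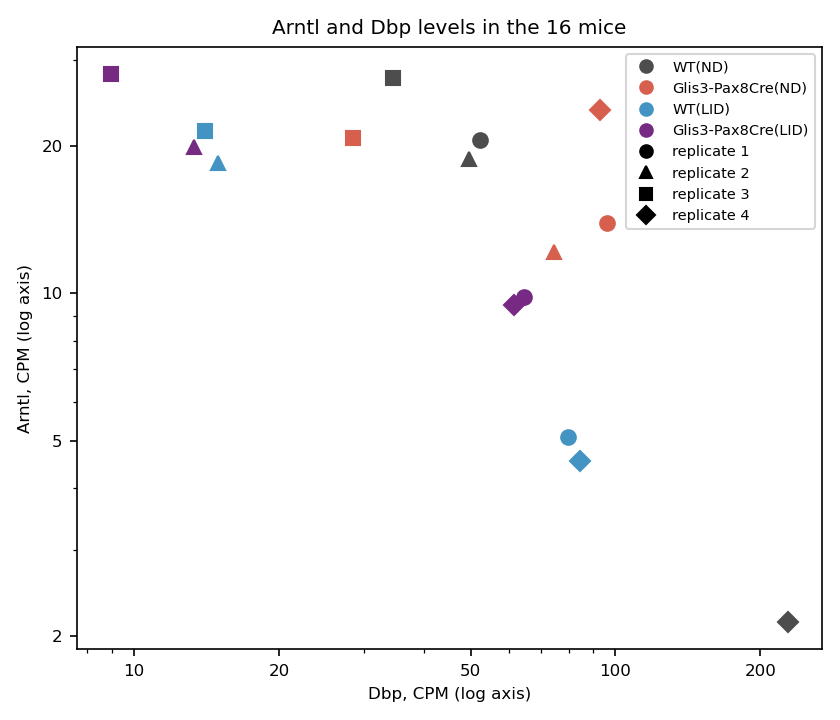
Level of *Arntl* against that of *Dbp* (CPM, log axes) in each of the 16 mice, coloured by group with symbols for the replicate number. Mice with *Dbp* at 15.0 CPM or less have *Arntl* at 18.5 CPM or more, and WT(ND) replicate 4 lies alone at 228.5 and 2.14 CPM.

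The effect of the diet in WT thyroids was examined first; each group of 4 mice serves in 2 of the 4 comparisons between groups, so these are not independent. Of the 10 clock genes, 0 passed an adjusted p of 0.05 in WT(LID) against WT(ND) by edgeR's quasi-likelihood test, while 41.7% of all genes tested did. *Per2* had 84.6 ± 29.1 CPM on LID and 40.3 ± 28.9 CPM on ND (SD, n = 4). Its log2 fold change was 1.07 with an SE of 0.49 (edgeR adjusted p = 0.0975), and it was the only 1 of the 10 with an unadjusted p under 0.05 (49.2% of all genes). *Dbp* had a log2 fold change of -0.92 (95% interval -2.75 to 0.91, edgeR adjusted p = 0.415) and *Npas2* one of -0.86 (-2.21 to 0.49, adjusted p = 0.296). The groups of 4 did not separate for any of the 10 genes, against 46.9% of all genes. The median log2 fold change was -0.28 for the clock genes and -0.03 for all genes, and DESeq2 also called 0 of 10. Without WT(ND) replicate 4, *Per2* (log2 fold change 1.69, edgeR adjusted p = 0.011) and *Per1* (0.62, adjusted p = 0.033) passed, and the values of *Dbp* (0.09) and *Per3* (0.26) changed sign.

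In *Glis3*-Pax8Cre thyroids the comparison of LID with ND also called 0 of 10 by edgeR (25.4% of all genes), with 0 at an unadjusted p under 0.05 (38.3% of all genes) and 0 by DESeq2. The log2 fold changes were between -0.97 for *Dbp* (95% interval -2.81 to 0.86, adjusted p = 0.426) and 0.57 for *Per2* (-0.48 to 1.61, adjusted p = 0.418), around a median of -0.07 against -0.03 for all genes. None of the 10 separated the groups, against 21.9% of all genes. Mice with equal numbers in these 2 groups deviated together over all genes (r from 0.21 to 0.65), while over the 10 clock genes r ranged from 0.06 to 0.89. When that number entered the fit as a block *Dbp* passed (log2 fold change -1.38, edgeR adjusted p = 0.0413). In a blocked fit of these 8 mice alone, added after seeing the data, *Per2* (0.54, adjusted p = 0.00863), *Per3* (-0.69, adjusted p = 0.0424) and *Dbp* (-1.32, adjusted p = 0.0234) passed. The share of all genes called in these blocked fits is not given here, so the calls are not read as particular to clock genes.

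Between genotypes on ND, 0 of 10 clock genes passed by edgeR in *Glis3*-Pax8Cre(ND) against WT(ND), where 19.6% of all genes did. *Cry1* had a mean of 15.5 CPM in *Glis3*-Pax8Cre(ND) and 7.84 ± 0.70 CPM in WT(ND) (SD, n = 4). Its log2 fold change was 0.98 with an SE of 0.38 (edgeR adjusted p = 0.0882), and no other of the 10 had an unadjusted p under 0.05 (33.7% of all genes). DESeq2 called it (adjusted p = 0.0297), and it was the only one of the 10 that DESeq2 called in any comparison. The other 9 log2 fold changes ranged from -0.36 for *Nr1d1* (95% interval -0.80 to 0.09) to 0.58 for *Per2* (-0.47 to 1.63). No gene of the 10 separated the groups (19.5% of all genes did), and the median was -0.03 against 0.02 for all genes. Without *Glis3*-Pax8Cre(ND) replicate 2, *Cry1* (1.24, edgeR adjusted p = 0.022) and *Nr1d1* (-0.59, adjusted p = 0.040) passed. Without replicate 3 of that group *Cry1* passed (1.22, adjusted p = 0.033), while without its replicate 4 the value of *Cry1* was 0.44 (adjusted p = 0.364) and 0 of 10 passed. With both ND mice numbered 4 set aside it was 0.49 (adjusted p = 0.396), and again 0 of 10 passed.

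Between genotypes on LID, 0 of 10 passed by edgeR in *Glis3*-Pax8Cre(LID) against WT(LID) (30.2% of all genes), 0 had an unadjusted p under 0.05 (40.3% of all genes) and DESeq2 called 0. *Npas2* had the largest log2 fold change, 1.10 (95% interval -0.25 to 2.46, edgeR adjusted p = 0.212), with means of 24.8 and 11.6 CPM. The level of *Npas2* was 1.79 to 2.58 times as high in the *Glis3*-Pax8Cre mouse as in the WT mouse of the same number. The deviations of the 10 clock genes correlated from 0.88 to 0.99 between mice of equal number on LID and those of all genes from -0.52 to 0.10. Clock gene correlations between unequal numbers are not given here. In both LID groups *Dbp* was high in replicates 1 and 4 and low in replicates 2 and 3. The values from 0.88 to 0.99 therefore do not show that equal numbers were matched. What the numbers stand for is not given in the sources used here. Within equal numbers *Arntl* and *Cry1* were also higher, and *Clock* and *Dbp* lower, in all 4 *Glis3*-Pax8Cre(LID) mice. The share of all genes with 1 direction in all 4 was not counted, so this is not read as a paired effect of genotype. With that number as a block in these 8 mice, an alternative added after seeing the data, *Arntl* (0.61, edgeR adjusted p = 0.0401), *Npas2* (1.10, adjusted p = 0.000701), *Cry1* (0.39, adjusted p = 0.0231) and *Dbp* (-0.40, adjusted p = 0.0184) passed. On LID equal numbers correlated in these same 10 genes but not over all genes. These blocked p values therefore cannot count as evidence of a genotype effect. Without the block *Arntl* had 0.44 (-1.01 to 1.89), *Clock* -0.38 (-0.86 to 0.09), *Dbp* -0.38 (-2.20 to 1.44), and *Per1* a value of 0.00 with an SE of 0.26. The median was 0.04 against 0.01 for all genes, and 0 of 10 separated the groups against 35.5% of all genes.

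The interaction of genotype and diet, the difference between the LID effects of both genotypes, called 0 of 10 by edgeR (11.8% of all genes) and by DESeq2, with 0 at an unadjusted p under 0.05 (26.6% of all genes). The values ranged from -0.58 for *Cry1* (95% interval -1.73 to 0.57) to 1.06 for *Npas2* (-0.84 to 2.96). The intervals show how far these 16 mice limit a difference. For *Dbp* a 4-fold lower level in the knockout on LID lies within the interval, while for *Clock*, *Cry2*, *Per1* and *Nr1d1* all 4 intervals between groups end within 1 unit of log2 on either side of 0, that is, within 2-fold.

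**Figure D5:**
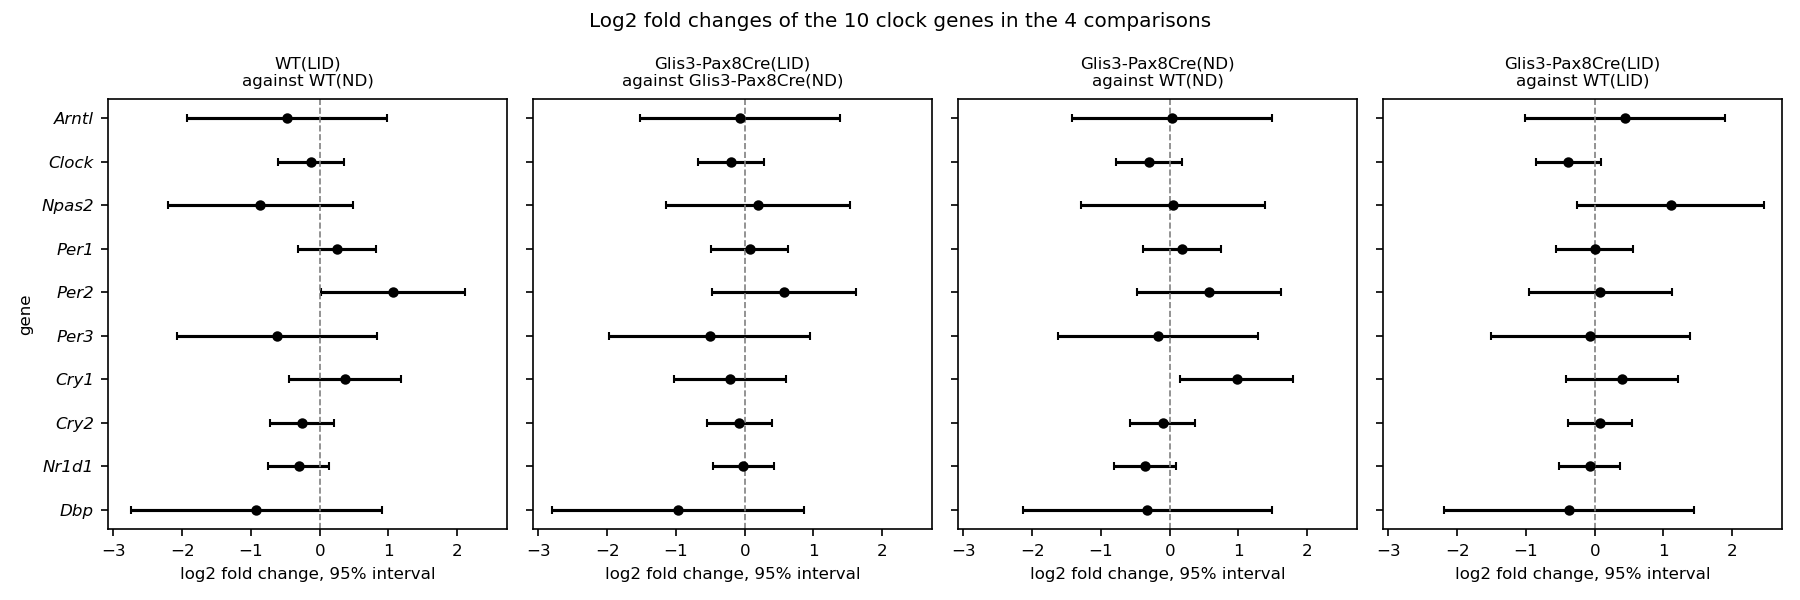
Log2 fold change (points) with its 95% interval (bars) of the 10 clock genes in the 4 comparisons between groups, from the fit to all 16 mice. Of the 40 intervals, 2 exclude 0, those of *Per2* in WT(LID) against WT(ND) and of *Cry1* in *Glis3*-Pax8Cre(ND) against WT(ND), and *Arntl*, *Npas2*, *Per3* and *Dbp* have the widest.

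Of 19 other clock genes, 18 were tested and 10 were called in at least 1 comparison by edgeR. Taken singly, the comparisons and the interaction called from 11.8% to 41.7% of all genes. The share of all genes called in at least 1 was not counted, so 10 of 18 is not read as particular to clock genes. *Nfil3*, which competes with DBP for D-box motifs as a repressor, was higher in all 4 comparisons. On ND the values were 1.37, 1.98, 2.56 and 1.49 CPM for WT and 8.53, 4.65, 13.3 and 3.57 CPM for *Glis3*-Pax8Cre. On LID they were 3.43, 6.63, 7.73 and 3.57 CPM for WT and 9.99, 31.6, 27.2 and 15.3 CPM for *Glis3*-Pax8Cre. The log2 fold change was 1.53 (edgeR adjusted p = 0.0142) for LID in WT, 1.49 (adjusted p = 0.0255) for LID in *Glis3*-Pax8Cre, 2.02 (adjusted p = 0.00773) for the genotype on ND and 1.98 (adjusted p = 0.0042) for the genotype on LID. Of these, 3 kept an adjusted p under 0.05 under every alternative, and LID in *Glis3*-Pax8Cre, whose groups overlap, did not.

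In WT(LID) against WT(ND) 4 of the 18 genes were higher (20.9% of all genes) and 4 lower (20.8%), with a median log2 fold change of -0.05. *Timeless*, which acts in DNA replication as well as with the clock, rose (1.33, edgeR adjusted p = 9.56e-05), as did *Nfil3* and the PER kinases *Csnk1e* (0.45, adjusted p = 0.00574) and *Csnk1d* (0.20, adjusted p = 0.0183), the latter 2 not when scaled by library size alone. *Rora*, which activates *Arntl* through the elements that NR1D1 represses, fell (-0.70, adjusted p = 0.000486), as did *Fbxl21* (-0.81) and *Btrc* (-0.33), parts of ubiquitin ligases that act on CRY or PER proteins. In *Glis3*-Pax8Cre mice on LID 1 gene was higher (13.1% of all genes), *Nfil3*, and 3 were lower (12.3%), namely *Fbxl21* (-1.04), *Arntl2* (-0.86) and *Btrc* (-0.37). Their edgeR adjusted p values were 0.0011, 0.0319 and 0.000499.

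Between genotypes on ND, *Nfil3* and *Csnk1d* (0.22) were higher (2 of 18, against 10.3% of all genes) and *Rora* (-0.55) was lower (1 of 18, against 9.25%). On LID, *Nfil3* was among the 2 of 18 that were higher (14.9% of all genes), and *Arntl2*, a relative of *Arntl*, (-1.08), *Usp2* (-0.80), *Timeless* (-0.75) and *Csnk1e* (-0.56) were lower (15.4%), with edgeR adjusted p between 0.00192 and 0.00977 for these 4. In the interaction *Timeless* (-1.30, adjusted p = 0.00749) and *Rora* (0.61, adjusted p = 0.041) passed, 1 in each direction, against 7.41% lower and 4.43% higher of all genes. *Tef*, *Hlf*, *Ciart* and *Nr1d2*, listed clock genes with a wide spread within groups like the 10, were called in no comparison. Leaving out single mice or both ND mice numbered 4 ended the calls of *Csnk1d* in WT on LID and between genotypes on ND, of *Arntl2* for LID in *Glis3*-Pax8Cre and of *Rora* on ND and in the interaction.

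The genes whose log2 CPM ran most like *Dbp* over the 16 mice, among 11665 non-members with a mean of at least 5 CPM, were *Tef* (r = 0.95), *Nr1d2* (0.91), *Hlf* (0.88), *1700001L05Rik* (0.87) and *Cipc* (0.82). *Tef* and *Hlf* encode the other PAR bZIP factors, *Nr1d2* encodes REV-ERB beta, and the product of *Cipc* binds CLOCK. Those most like *Arntl* were *Ripor2* (r = 0.85), *Leo1* (0.84), *Ccdc25* (0.78), *Thoc5* (0.74) and *1810030O07Rik* (0.73). These values are descriptions over mice that share libraries and diets, and no test was made of them.

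Genes that cAMP or glucocorticoids induce were counted because both signals also induce *Per1* and *Per2*. Of 11 cAMP early genes, 7 were higher and 1 lower in WT(LID) against WT(ND), where 20.9% of all genes were higher and 20.8% lower, with a median log2 fold change of 0.88. On LID in *Glis3*-Pax8Cre 4 were higher and 0 lower (13.1% and 12.3% of all genes), with a median of 0.63. Between genotypes 1 was higher and 1 lower on ND (10.3% and 9.25% of all genes, median 0.03), and 1 was higher and 4 lower on LID (14.9% and 15.4%, median -0.37). In the interaction *Atf3* (-1.93, edgeR adjusted p = 0.0134) and *Dusp1* (-1.27, adjusted p = 0.0313) were lower and *Egr1* (1.94, adjusted p = 0.025) higher, while *Nr4a2* had -0.45 (adjusted p = 0.0852). Against the same shares of all genes, of 10 glucocorticoid induced genes 7 were higher and 1 lower on LID in WT (median 0.77), 4 higher and 2 lower on LID in *Glis3*-Pax8Cre (median 0.25), 3 higher and 0 lower between genotypes on ND (median 0.34) and 2 higher and 1 lower on LID (median -0.11). *Ddit4* passed the interaction (-0.85, adjusted p = 0.0451), and *Tsc22d3* (-0.97, adjusted p = 0.0541), *Fkbp5* (-1.07, adjusted p = 0.118) and *Mt1* (0.48, adjusted p = 0.213) did not. Without *Glis3*-Pax8Cre(ND) replicate 4 *Ddit4* had -0.55 (adjusted p = 0.00818) and *Nr4a2* passed (-0.60, adjusted p = 0.00131). Without WT(ND) replicate 4 *Ddit4* (-0.87, adjusted p = 0.0649), *Egr1* (1.68, adjusted p = 0.0547) and *Dusp1* (-1.26, adjusted p = 0.0578) did not pass and *Tsc22d3* did (-1.12, adjusted p = 0.0325).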

How the data were processed

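Counts of read pairs per gene were deposited for thyroid RNA from 16 mice. According to the methods of the study, pairs whose mean base quality exceeded 20 at both ends were mapped by the authors (STAR, mm10) and assigned to RefSeq gene models by featureCounts, ignoring strand. The submitters' processing notes name STAR 2.5, Subread and featureCounts 1.5.0-p1. Libraries were read on a NextSeq500 or NovaSeq instrument, and which library was read on which is not given in the sources used here, so no instrument term was fitted.

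Genes were filtered with filterByExpr on the 4 groups, normalized by TMM and fitted in edgeR 4.0.16 (R 4.3.3, limma 3.58.1) by the robust quasi-likelihood method with 1 mean per group. P values were adjusted by Benjamini-Hochberg over the 16630 genes tested, with calls made under 0.05. CPM use TMM-scaled library sizes, and log2 CPM a prior count of 2. Standard errors were taken from the fold change and F statistic, and intervals are at 95%. The labels do not state that mice of a group came from separate litters or cages, so p values measure the spread between these mice. No within-group pair of libraries was a duplicate (chi-squared over degrees of freedom at least 34.5 in 24 pairs). Deviations from the group mean over all genes correlated from 0.21 to 0.65 between mice of equal number in the *Glis3*-Pax8Cre groups, and only there did equal numbers go together. The main fits had no term for the number, also for LID in *Glis3*-Pax8Cre, so their counts ignore that pairing. As an alternative the number entered as a block in all comparisons, including those where pairs were not shown. The code was tested on simulated data.

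Alternatives were RLE, library size alone, *Tg* left out, DESeq2 1.42.0, no filter, at least 10 counts in every mouse, the 8 mice of a comparison, a replicate block, an adjusted p under 0.01 with a fold change over 2, a prior count of 0.5, and each mouse left out (16 fits). Added after seeing the data were a covariate (mean log2 CPM of *Tef*, *Hlf*, *Ciart* and *Nr1d2*), the block within 8 mice, and both ND mice numbered 4 left out, with either of them also left out for the interaction of the cAMP and glucocorticoid genes. The 10 genes, the lists and the comparisons were chosen with earlier results of these data known. Named beyond the 10 were listed clock genes called in at least 1 comparison, the 5 genes most like *Arntl* and *Dbp*, and 4 genes each of the cAMP and glucocorticoid lists with the smallest interaction p. Exon lengths came from GENCODE vM21 and promoters from RefSeq (Python 3.11.15). *Per2* was named without a promoter. Of the other clock genes called, 1 is counted but not reported here.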

Additional observations from a re-analysis of the deposited data

Results flagged for a closer look

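In groups of 4 mice, single values of named genes stood apart by Dixon's criterion 9 times among 112 gene and group pairs, 5 of them among the 40 pairs of the 10 clock genes. Chance gives such a value in about 1 of 20 groups when values are normal and independent. The clock genes ran together within mice, so the counts are not read as an excess over that rate. WT(ND) replicate 4 gave 3 of the 5 values in clock genes, with *Per1* at 161.3 CPM (70.6 to 79.3 CPM in the other 3 mice), *Per3* at 95.5 CPM (17.3 to 25.9 CPM) and *Dbp* at 228.5 CPM (34.5 to 52.4 CPM). It is also the deepest library, and the part of depth in this was not tested. *Nr1d1* was high in *Glis3*-Pax8Cre(ND) replicate 2 at 171.9 CPM (98.9 to 101.5 CPM) and low in *Glis3*-Pax8Cre(LID) replicate 2 at 94.5 CPM (122.1 to 125.1 CPM). *Glis3*-Pax8Cre(ND) replicate 4, the library with 2444 CPM of thymocyte markers, was high for *Timeless* at 25.5 CPM (11.47 to 13.3 CPM), *Csnk1e* at 59.8 CPM (43.8 to 44.6 CPM) and *Ddit4* at 84.9 CPM (40.8 to 43.9 CPM), and the part of those cells was not tested. *Rora* was low in WT(LID) replicate 4 at 37.0 CPM (41.2 to 41.8 CPM).

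The effect of LID differed between genotypes, by edgeR's test of the interaction, for *Rora* (0.61), *Timeless* (-1.30), *Atf3* (-1.93), *Egr1* (1.94), *Dusp1* (-1.27) and *Ddit4* (-0.85), all on the log2 scale, and for 0 of the 10 clock genes. *Rora* did not pass in 16 of 25 alternatives, while *Timeless* passed in all 25. Without WT(ND) replicate 4, *Egr1*, *Dusp1* and *Ddit4* did not pass by edgeR (adjusted p = 0.0547, 0.0578 and 0.0649), and *Atf3* did (adjusted p = 0.0145). *Atf3* was 10.5 to 12.2 CPM in 3 of 4 WT(LID) mice and at most 3.09 CPM in every other mouse.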

How the results depend on the processing

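Of the 50 log2 fold changes of the 10 clock genes, 25 changed sign in at least 1 alternative, the largest of them 0.92 in size, and 16 passed in at least 1, among 1310 values of which 1193 kept sign and side of the threshold. No call was made on 16 mice without a block or covariate, except by DESeq2 for 1 gene (genotype on ND). The replicate block called 2 genes for LID in WT, 1 for LID in *Glis3*-Pax8Cre, 1 for genotype on ND and 1 for genotype on LID. The covariate, chosen after seeing the data like the next 2, called 4, 3, 1 and 1 in that order and 1 in the interaction. It is itself a mean of clock genes, among them *Tef*, *Nr1d2* and *Hlf*, which ran most like *Dbp*. It therefore adjusts the 10 genes for a signal that they share with it. The block in 8 mice called 3 for LID in *Glis3*-Pax8Cre and 4 for genotype on LID, and leaving out both ND mice numbered 4 called 2 for LID in WT. With 1 mouse left out the calls ranged from 0 to 2 for LID in WT and from 0 to 2 for genotype on ND. The share of all genes called in these alternative fits is not given here. Their counts are therefore not read as results particular to the 10 genes. Same-numbered mice were not shown to be pairs outside the *Glis3*-Pax8Cre groups. The cause of these changes was not tested.

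Log2 fold changes that changed sign were as follows. With library size alone, which shifted the median of all genes by -0.16 to 0.15, these were LID in *Glis3*-Pax8Cre *Per1* -0.048, genotype on ND *Per3* 0.0071 and *Cry2* 0.036, genotype on LID *Per1* 0.16, *Per3* 0.074 and *Nr1d1* 0.067. With the replicate block, these were interaction *Per3* -0.097. With the covariate, these were LID in *Glis3*-Pax8Cre *Npas2* -0.12 and *Nr1d1* 0.0037, genotype on LID *Per2* -0.016, interaction *Arntl* -0.033 and *Per3* -0.16. With the block in 8 mice, these were LID in *Glis3*-Pax8Cre *Cry1* 0.051 and *Nr1d1* 0.011. Without both ND mice numbered 4, these were LID in WT *Per3* 0.26 and *Dbp* 0.086, LID in *Glis3*-Pax8Cre *Arntl* 0.10, *Npas2* -0.088 and *Cry1* 0.34, genotype on ND *Arntl* -0.52, *Per3* 0.48, *Cry2* 0.051 and *Dbp* 0.54, interaction *Per3* -0.54 and *Nr1d1* -0.016. Over the fits without 1 mouse, for LID in WT the range was *Per3* -0.97 to 0.26 and *Dbp* -1.33 to 0.092. For LID in *Glis3*-Pax8Cre the range was *Arntl* -0.45 to 0.12, *Npas2* -0.19 to 0.52, *Per1* -0.074 to 0.22, *Cry1* -0.47 to 0.33, *Cry2* -0.24 to 0.058 and *Nr1d1* -0.11 to 0.22. For genotype on ND the range was *Arntl* -0.33 to 0.37, *Npas2* -0.28 to 0.47, *Per3* -0.41 to 0.72, *Cry2* -0.18 to 0.080 and *Dbp* -0.58 to 0.69. For genotype on LID the range was *Per1* -0.15 to 0.15, *Per2* -0.13 to 0.26, *Per3* -0.50 to 0.29, *Cry2* -0.090 to 0.22, *Nr1d1* -0.19 to 0.015 and *Dbp* -0.79 to 0.033. For interaction the range was *Clock* -0.27 to 0.076, *Per3* -0.78 to 0.45, *Cry2* -0.0039 to 0.31 and *Dbp* -1.07 to 0.36.

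Of 23 calls of other clock genes, 14 held under all alternatives, 9 were lost in at least 1 and 0 changed sign. The *Arntl* to *Dbp* ratio moved by less than its SD with a prior count of 0.5.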
